A study of Mus musculus with 6 samples.

Results

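Collagen genes were compared between tumors of the penis in SA mice and the normal penile epithelium of wild type (WT) mice. All gene symbols made of Col, a type number, the letter a and a chain number were taken, which gave 44 of the 24063 symbols in the files. Each symbol was represented by 1 transcript row, that of largest mean count. The SA group held spontaneous penile tumors of 3 mice of the genotype PB-Cre+ Smad4L/L ApcL/L, and the WT group held normal penile epithelium of 3 C57BL/6 mice. All the mice were 5 months old. PB-Cre4 carries the Cre recombinase under a promoter that responds to the androgen receptor, and the study used it to delete Smad4 and Apc in penile epithelium. The labels name neither Cre nor floxed alleles for the WT mice, so that tumor, genotype and strain background cannot be told apart in this comparison. The epithelial keratins Krt5 and Krt14 were at 3071 CPM or more in each sample (counts scaled to library size), and fibroblast markers were measured in all of them too, so that the tissue labelled epithelium held stroma.

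Collagens are extracellular matrix proteins in which 3 chains wind around each other into a triple helix. Each chain repeats a Gly-X-Y triplet, since only glycine is small enough for the centre of the helix. Fibrillar collagens pack into the cables of connective tissue, and FACIT collagens sit on the surface of those fibrils. Type IV collagens form the network of basement membranes, and type VI collagens form beaded filaments. Transmembrane collagens are made as chains that span the plasma membrane. In stratified epithelium such as that of the penis, type XVII collagen holds basal cells to the basement membrane, and type VII collagen ties that membrane to the stroma beneath.

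The repeat can be read in single exons. Coding exons of 54 bases, which hold 6 whole Gly-X-Y triplets, are typical of fibrillar collagen genes and of some FACIT genes and are fewer or absent in other classes, and 1 such exon is given here for each of 5 genes from different classes or with contrasting results below. Sequences were read from GENCODE transcripts on GRCm38 (mm10), 5′ to 3′ on the coding strand, with the glycine codon that opens each triplet in capitals. Col1a1 is a major fibrillar gene, Col2a1 and Col9a2 encode fibrillar and FACIT chains known from cartilage, Col4a1 is a basement membrane gene, and Col25a1 is a transmembrane gene.
Col1a1, exon 8, chr11:94939904-94939957, plus strand: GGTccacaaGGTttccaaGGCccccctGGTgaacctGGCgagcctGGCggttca
Col2a1, exon 10, chr15:97996489-97996542, minus strand: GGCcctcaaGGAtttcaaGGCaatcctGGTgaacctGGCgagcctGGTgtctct
Col9a2, exon 12, chr4:121045141-121045194, plus strand: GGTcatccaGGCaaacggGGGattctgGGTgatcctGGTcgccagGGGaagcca
Col4a1, exon 7, chr8:11245211-11245264, minus strand: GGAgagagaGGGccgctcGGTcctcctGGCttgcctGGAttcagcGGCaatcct
Col25a1, exon 32, chr3:130577302-130577355, plus strand: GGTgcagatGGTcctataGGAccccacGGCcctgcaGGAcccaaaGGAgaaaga

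Levels are given as CPM, counts scaled to library size with TMM normalization, which compare samples for 1 gene, and as the deposited TPM values, which allow for transcript length as well and compare genes. A gene is said to have risen or fallen where edgeR's quasi-likelihood F-test gave an adjusted p under 0.01 over all 16336 genes tested, and to have changed by a large amount where the log2 fold change was also at least 2 in size. P-values measure the spread between 3 animals in each group. The gene rows held 23828283 to 110509147 counts per library, so that 3 counts, the smallest amount taken as seen, equal 0.0244 to 0.137 CPM by counting error alone. Smad4 was lower in the libraries labelled SA (36.6, 36.1 and 46.1 CPM against 61.2, 69.7 and 72.5 in WT), whereas Apc was higher (253, 194 and 197 CPM against 62.5, 85.3 and 91.1). These counts cover whole transcripts, including parts that a deletion leaves in place, and the exons removed are not given in the sources used here. The library of SA tumor 3 had 4.42 times the median count of the other libraries, and SA tumor 1 was the lowest of the 3 SA tumors in 26 of the 44 collagen genes, against 32.7% of all genes tested.

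Collagen genes moved in both directions. Of the 43 that passed the filter on low counts, 16 rose in SA tumors, where 20.1% of all genes tested rose, and 10 fell, where 17.5% of all genes tested fell. Together 26 changed, against a background of 37.6%, and the other 17 did not pass the test. Large increases were found in 10 collagen genes (9.41% of all genes tested) and large decreases in 5 (3.59%). Every SA value lay above every WT value in 19 collagen genes (32.7% of all genes tested) and below in 14 (30.7%), and the groups overlapped in 10. The median log2 fold change was 0.56 over the collagen genes and 0.03 over all genes tested. Of the 26 calls, 20 were kept in all 6 fits that each left out 1 sample. Without SA tumor 1, 22 rose and 10 fell, the 22 including Col10a1, which is not among the 43. Without WT penis 2 or WT penis 3 the number that fell was 6. The share of all genes called in these fits is not given here. Col10a1 did not pass the filter, and no row with the symbol Col21a1, a FACIT gene, was found.

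**Figure D1:**
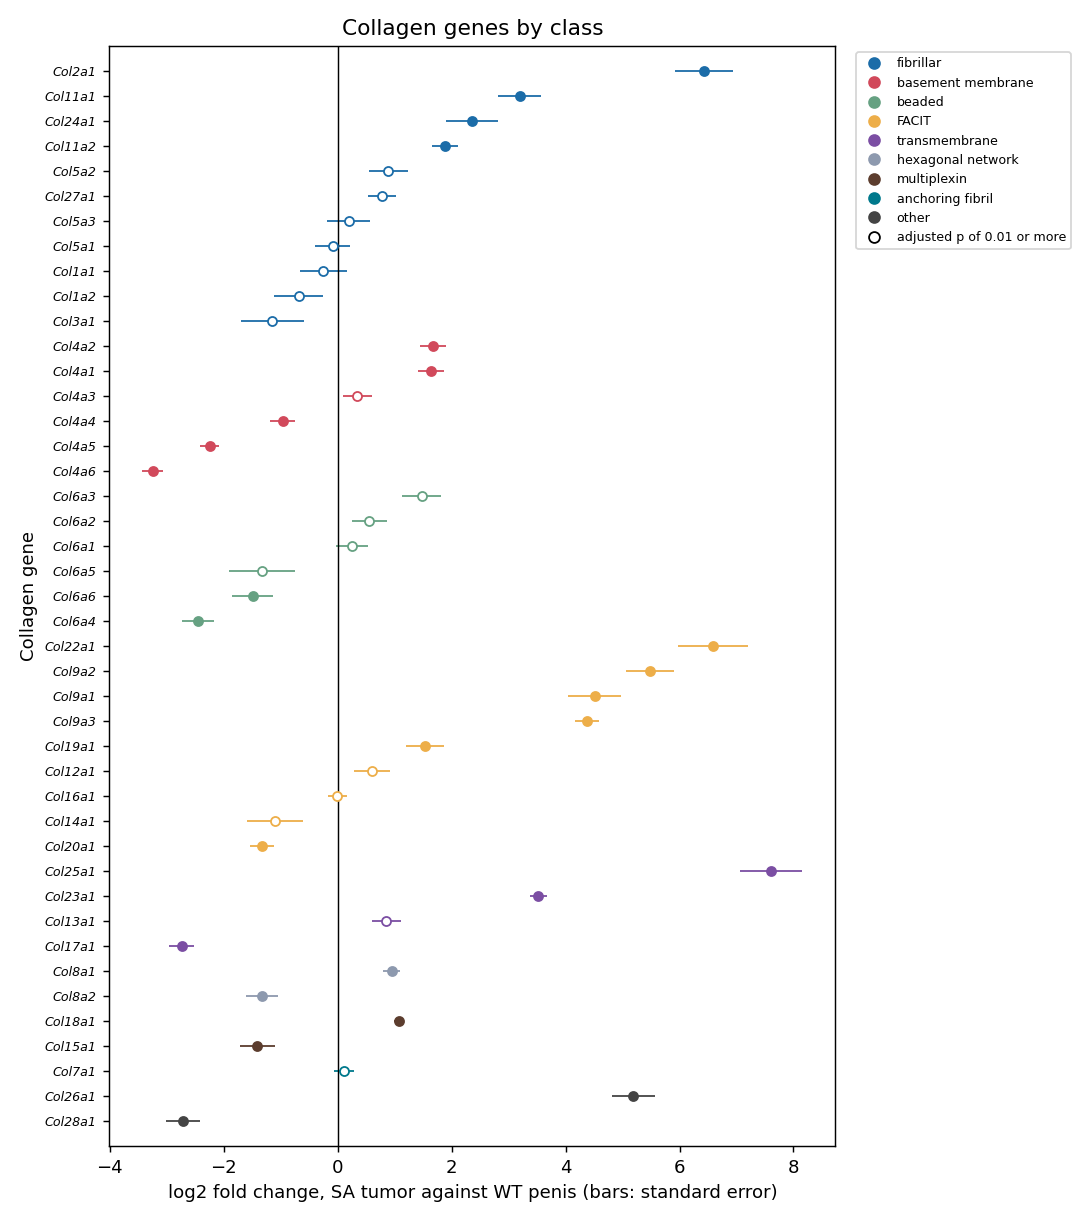
Log2 fold change of SA tumor against WT penis for the 43 tested collagen genes, ordered by class and then by size, with the standard error (SE) as a horizontal bar. Filled points passed the adjusted p threshold of 0.01. The points run from -3.24 for Col4a6 to 7.61 for Col25a1, and filled points lie on both sides of 0 within the basement membrane, FACIT and transmembrane classes.

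The collagen genes with the highest levels per transcript length differed between the groups. In WT penises, Col17a1 had the highest mean level of the 44 genes, 715 ± 128 TPM (SD, n = 3), followed by Col3a1 at 586 ± 30.3, Col1a2 at 291 ± 39.0 and Col1a1 at 277 ± 42.0 TPM. In SA tumors, Col3a1 came first at 342 ± 224 TPM, followed by Col1a1 at 299.7 ± 159, Col1a2 at 233 ± 128 and Col18a1 at 169 ± 7.89, and Col17a1 was 8th at 138 ± 38.3 TPM. Within single SA tumors Col1a1 was above Col1a2 each time, at ratios of 1.38, 1.26 and 1.28. Col3a1 was below Col1a1 in SA tumor 1 and above it in the others, at ratios of 0.805, 1.14 and 1.24. The order of Col3a1 and Col1a1 was therefore not resolved there.

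All 44 genes together took 0.842%, 0.922% and 0.979% of the gene-row counts in WT penises and 0.475%, 0.883% and 1.10% in SA tumors. The sum was lowest in SA tumor 1, and the other SA tumors lay within or above the range of the WT penises. On the TMM scale the sums were 9526, 10112 and 10627 CPM in WT penises and 4321, 8056 and 9862 CPM in SA tumors, so that SA tumor 2 also lay below the WT range and SA tumor 3 within it. Within the collagen counts the classes held different shares. Basement membrane collagens took 4.29% ± 0.275 of collagen counts in WT and 14.3% ± 1.48 in SA, and beaded collagens took 6.30% ± 0.291 and 13.03% ± 0.803 (SD, n = 3 each). Transmembrane collagens took 28.6% ± 2.02 in WT and 9.75% ± 3.10 in SA. Most of this was Col17a1, at 2481, 2969.7 and 3158 CPM of 2505, 2994 and 3184 CPM in WT penises. In SA tumors it was at 305, 453 and 531 CPM of 576, 650 and 774 CPM. Of the other transmembrane genes, Col23a1 and Col25a1 rose and Col13a1 did not pass the test. Shares of collagen counts depend on each other, and those of every class but the fibrillar one did not overlap between the groups, Col7a1 included, which did not pass the test itself. As a share of all gene-row counts, beaded collagens overlapped, at 0.0559% to 0.0603% in WT and 0.0575% to 0.148% in SA. No test was made of these shares. Fibrillar collagens took 48.2% ± 1.44 in WT and 40.5% ± 9.86 in SA, with 29.2% in SA tumor 1 and 44.7% and 47.5% in the others.

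**Figure D2:**
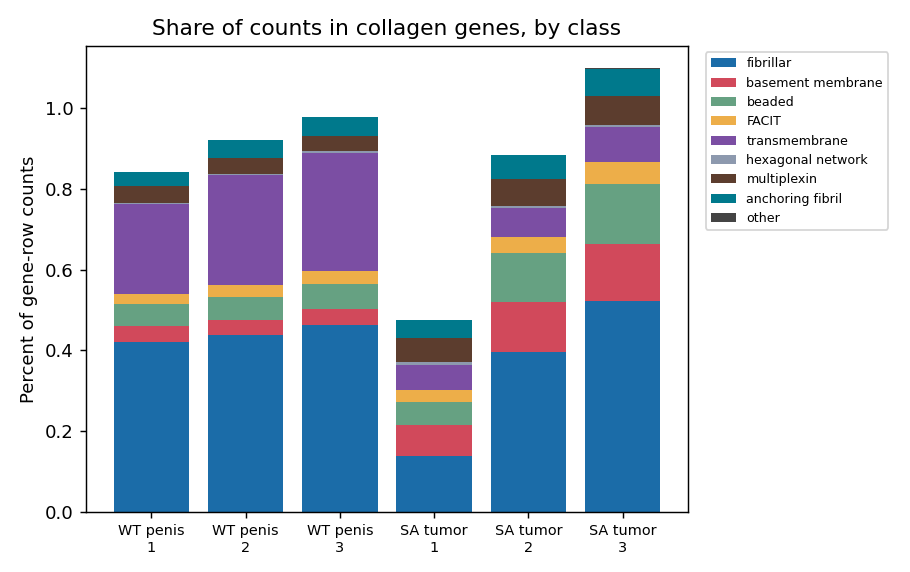
Percent of all gene-row counts in the 44 collagen genes, stacked by class, in each of the 6 samples. The bars reach 0.842 to 0.979 percent in the WT penises and 0.475 to 1.10 percent in the SA tumors, the transmembrane segment is taller in each WT penis than in any SA tumor, and the basement membrane segment is taller in each SA tumor than in any WT penis. Most of the transmembrane segment is Col17a1.

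The major fibrillar collagens, which make up most of the collagen of dermis and stroma, did not pass the test in either direction. Of the 11 fibrillar genes 4 rose (36.4%, against 20.1% of all genes tested), 0 fell (against 17.5%) and 7 did not pass. Their median log2 fold change was 0.78. Col1a1 (NM_007742, chromosome 11, 94936224 to 94953042), which encodes the first chain of type I collagen, stood at 873, 919 and 1047 CPM in WT penises and at 329.9, 927 and 1123 CPM in SA tumors. SA tumor 1 was low and the other tumors were at or above the WT range, so that the groups overlapped, with a log2 fold change of -0.25 (SE 0.410, adjusted p = 0.634). Without SA tumor 1 this value was 0.11. Col3a1 (NM_009930, chromosome 1, 45311538 to 45349706), the gene of type III collagen, was at 2398, 2389 and 2345 CPM in WT penises and at 315, 1246 and 1655 CPM in SA tumors. All the SA tumors lay below all the WT penises, but the spread among them was wide, and the log2 fold change of -1.15 (SE 0.549, adjusted p = 0.125) did not pass the test. Without SA tumor 1 it was -0.72 and passed (adjusted p = 0.00530). Col1a2 had a log2 fold change of -0.69 (SE 0.435, adjusted p = 0.226), again with groups that did not overlap.

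Type V collagen chains join type I fibrils and limit their thickness. Col5a1 and Col5a3 had log2 fold changes of -0.09 and 0.19 (adjusted p = 0.827 and 0.700), and the sign of each was turned by leaving out a library, SA tumor 1 for Col5a1 (0.20) and SA tumor 3 for Col5a3 (-0.27). Col5a2 was at 188, 172 and 170.1 CPM in WT penises and at 168, 326 and 484 CPM in SA tumors. SA tumor 1 lay at the WT level and the others above it, and the log2 fold change was 0.89 (SE 0.343, adjusted p = 0.0657). Without SA tumor 1 it was 1.19 and passed (adjusted p = 0.000515). Col27a1 had a log2 fold change of 0.78 (adjusted p = 0.0256), which passed without SA tumor 1 at 0.96 (adjusted p = 0.00689).

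The fibrillar genes that rose were of low level. Col2a1 (NM_031163, chromosome 15, 97975602 to 98004695) encodes type II collagen, the main fibril of cartilage. It was at 0.0904, 0 and 0.137 CPM in WT penises, at or near the floor, and at 6.61, 5.86 and 5.99 CPM in SA tumors. The 3 SA tumors were close together, and the log2 fold change was 6.43 (SE 0.509, adjusted p = 2.27e-05), with 5.71 without WT penis 2 and 7.19 without WT penis 3. Over the libraries of a group this was 1092 counts in SA against 5 in WT, a ratio of normalized counts of 89.7 with an exact 95% counting interval of 38.3 to 277. This interval and those given below pool the libraries of a group and leave out the spread between animals. Col11a1 and Col11a2 encode type XI chains, which share fibrils with type II collagen. Col11a1 was at 1.85, 2.34 and 2.73 CPM in WT penises and at 13.7, 15.5 and 33.7 CPM in SA tumors, a log2 fold change of 3.19 (SE 0.386, adjusted p = 0.000296). Col11a2 rose from 2.12, 2.57 and 1.78 CPM to 9.66, 7.02 and 7.37 CPM, a log2 fold change of 1.88 (SE 0.231, adjusted p = 0.000233). Col24a1, a fibrillar gene with a shorter helix, was at 1.94, 2.30 and 3.10 CPM in WT and at 5.69, 11.2 and 20.3 CPM in SA, a log2 fold change of 2.35 (SE 0.457, adjusted p = 0.00337). Its adjusted p was 0.0104 to 0.0233 without SA tumor 2 or any 1 of the WT penises. In TPM these increases were small beside the major chains, since Col2a1 reached 2.13 ± 0.176 and Col11a1 5.15 ± 2.85 TPM in SA tumors (SD, n = 3 each).

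**Figure D3:**
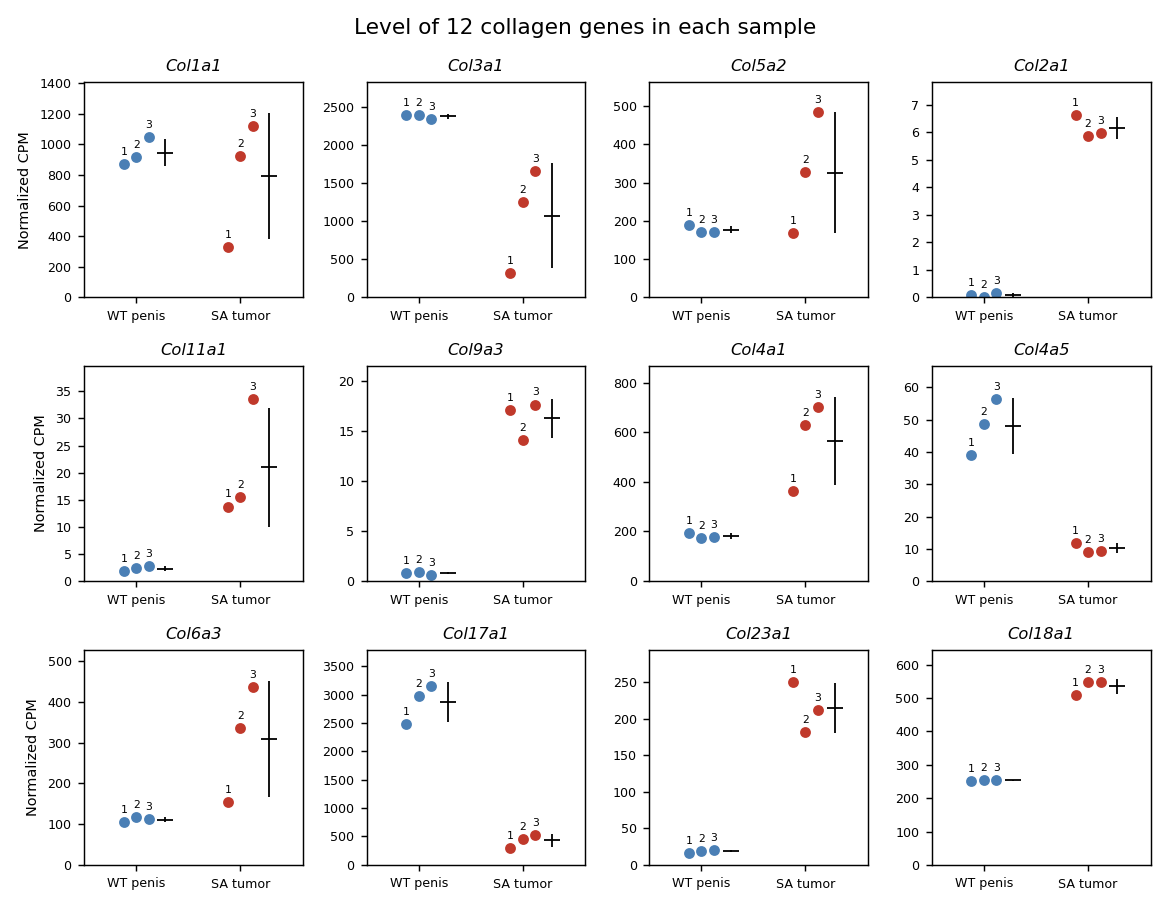
Normalized CPM of 12 collagen genes in each WT penis (blue) and SA tumor (red), numbered by replicate, with the mean as a horizontal line and the SD as a vertical bar (n = 3 each). SA tumor 1 is the lowest SA tumor for Col1a1, Col3a1, Col5a2, Col4a1 and Col6a3, while the SA tumors lie close together for Col2a1, Col9a3 and Col18a1, all above the WT penises.

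Type IV collagen genes split by chain. Of the 6 genes 2 rose, 3 fell and 1 did not pass, with a median log2 fold change of -0.31. Col4a1 (NM_009931, chromosome 8, 11198423 to 11312826) and Col4a2 (NM_009932, chromosome 8, 11312805 to 11449287) encode the chains found in nearly every basement membrane, including those of vessels. Col4a1 was at 194, 174 and 176 CPM in WT penises and at 364, 629 and 701 CPM in SA tumors, a log2 fold change of 1.64 (SE 0.224, adjusted p = 0.000469). Col4a2 rose by almost the same amount, 1.67 (SE 0.228, adjusted p = 0.000499), from 155, 127 and 132 CPM to 285, 487 and 541 CPM. SA tumor 1 was the lowest SA tumor for both and was still above the WT penises. The summed level of 7 endothelial markers beside this was 345 to 401 CPM in WT and 179 to 303 CPM in SA. Emcn, Pecam1 and Tie1 fell, while Cdh5 (log2 fold change -0.03), Kdr (0.09), Tek and Vwf did not pass the test. The calls of Pecam1 and Tie1 were lost without SA tumor 2, WT penis 1 or WT penis 2, and that of Pecam1 also without WT penis 3. The part of these markers in the result was not tested.

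Col4a5 and Col4a6 encode chains that pair in the basement membranes of skin and smooth muscle. Col4a5 (NM_001163155, X chromosome, 141475385 to 141689234) was at 39.1, 48.7 and 56.5 CPM in WT penises and at 11.9, 9.14 and 9.45 CPM in SA tumors. The log2 fold change was -2.25 (SE 0.171, adjusted p = 1.88e-05). Col4a6 (NM_053185, X chromosome, 141165403 to 141474076) fell further, from 38.6, 51.8 and 56.7 CPM to 5.65, 5.56 and 4.44 CPM, a log2 fold change of -3.24 (SE 0.183, adjusted p = 4.46e-06). The SA tumors were close together for both genes and far below the WT penises. Smooth muscle markers fell with them, with a summed level of 1584 to 2089 CPM in WT and 89.3 to 194 CPM in SA and 7 of 7 lower. Basal epithelial markers were at 16501 to 19551 CPM in WT and at 9778 to 11911 CPM in SA, with 3 of 7 lower and Epcam higher. The part of these markers in the result was not tested, and in bulk tissue fewer cells of a type and less RNA per cell cannot be told apart.

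Col4a3 and Col4a4 encode chains best known from the kidney. Col4a4 was at 7.46, 8.38 and 12.1 CPM in WT penises and at 5.17, 4.37 and 4.76 CPM in SA tumors, a log2 fold change of -0.97 (SE 0.218, adjusted p = 0.00587). This call was lost without SA tumor 2 (adjusted p = 0.0236), SA tumor 3 (0.0129), WT penis 2 (0.0130) or WT penis 3 (0.0197). Col4a3 had overlapping groups and a log2 fold change of 0.35 (SE 0.249, adjusted p = 0.272). The genes of this class lie as 3 head-to-head pairs. Col4a1 and Col4a2 overlap by 22 bases at their starts on chromosome 8 and both rose, Col4a5 and Col4a6 start 1308 bases apart on the X chromosome and both fell, and Col4a3 and Col4a4 start 71 bases apart on chromosome 1, where Col4a4 fell and Col4a3 did not pass the test. Whether the strand was used in counting is not given in the sources used here, and overlap with genes outside the family was not checked.

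Among the type VI genes 0 of 6 rose (against 20.1% of all genes tested) and 2 fell (33.3%, against 17.5%). Their median log2 fold change was -0.54. The 3 genes with the highest levels encode the classic chains of the beaded filament. Col6a1 was at 307, 294 and 322 CPM in WT penises and at 205, 412 and 483 CPM in SA tumors, and Col6a2 had the same shape, with log2 fold changes of 0.25 and 0.56 (adjusted p = 0.478 and 0.160). Col6a3 (NM_001243008, chromosome 1, 90765923 to 90843971) was at 105, 117 and 112 CPM in WT and at 153, 336 and 435 CPM in SA. All the SA tumors were above the WT penises, and the log2 fold change of 1.47 (SE 0.348) just missed the threshold (adjusted p = 0.0110). Without SA tumor 1, Col6a1 (0.54, adjusted p = 0.00630), Col6a2 (0.85, adjusted p = 0.000562) and Col6a3 (1.79, adjusted p = 2.00e-05) all passed.

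The remaining type VI chains are alternatives to the Col6a3 chain, and their genes lie next to each other on chromosome 9. Col6a4 (NM_026763, 105989454 to 106096783) fell from 9.81, 7.01 and 7.11 CPM in WT penises to 0.966, 1.69 and 1.64 CPM in SA tumors, a log2 fold change of -2.45 (SE 0.276, adjusted p = 0.000144). Col6a6 was near the limit of the filter, at 0.814, 1.13 and 0.683 CPM in WT and 0.334, 0.232 and 0.349 CPM in SA, a log2 fold change of -1.49 (SE 0.359, adjusted p = 0.00806). Its call was lost in each of the 6 fits that left out a sample (adjusted p from 0.0142 to 0.0509). Col6a5 had a log2 fold change of -1.33 (SE 0.581, adjusted p = 0.0863), with the SA tumors below the WT penises, and without SA tumor 3 it was -2.65 and passed (adjusted p = 0.00219). Col6a5 and Col6a6 share 270 runs of 76 bases, the length of a read, so that reads may be divided between them and their separate values are uncertain. No other pair of collagen genes shared such a run.

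By count, FACIT genes held the most increases of any class, though the classes differ in size. Of 9 tested 5 rose (55.6%, against 20.1% of all genes tested), 1 fell (11.1%, against 17.5%) and 3 did not pass, with a median log2 fold change of 1.53. The 3 genes of type IX collagen, which coats type II fibrils in cartilage, all rose by large amounts. Col9a1 (NM_001290691, chromosome 1, 24177610 to 24252684) was at 0.226, 0.134 and 0.456 CPM in WT penises and at 7.99, 6.22 and 3.97 CPM in SA tumors, a log2 fold change of 4.51 (SE 0.464, adjusted p = 8.90e-05). Col9a2 (NM_007741, chromosome 4, 121039385 to 121055322) was at 0.136, 0.234 and 0.775 CPM in WT and at 17.4, 16.1 and 16.5 CPM in SA, a log2 fold change of 5.48 (SE 0.423, adjusted p = 2.08e-05), which was 6.40 without WT penis 3, the highest of the WT penises. Col9a3 (NM_009936, chromosome 2, 180597790 to 180622189) was at 0.814, 0.868 and 0.638 CPM in WT and at 17.1, 14.0 and 17.6 CPM in SA, a log2 fold change of 4.38 (SE 0.207, adjusted p = 2.42e-06). For these genes SA tumor 1 was not the low sample, unlike for the major fibrillar chains.

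Col22a1 (NM_027174, chromosome 15, 71795795 to 72034227), a FACIT gene known from the junction of muscle and tendon, was at 0.181, 0 and 0.0456 CPM in WT penises and at 4.87, 6.72 and 8.81 CPM in SA tumors. The log2 fold change was 6.58 (SE 0.609, adjusted p = 5.14e-05), and with so few WT counts it was 8.27 without WT penis 1 and 5.86 without WT penis 2. In counts this was 1419 in SA against 5 in WT, a normalized ratio of 117 with an exact 95% counting interval of 49.8 to 360. Col19a1, a gene of basement membrane zones, rose from 1.40, 1.00 and 1.91 CPM to 5.46, 2.95 and 3.96 CPM, a log2 fold change of 1.53 (SE 0.336, adjusted p = 0.00521), and its call was lost without SA tumor 1 (adjusted p = 0.0114), WT penis 1 (0.0220) or WT penis 2 (0.0239). Col9a1 and Col19a1 are tail-to-tail neighbours, 9205 bases apart. Col20a1 was the FACIT gene that fell, from 6.83, 6.84 and 9.07 CPM to 2.90, 2.58 and 3.49 CPM, a log2 fold change of -1.33 (SE 0.215, adjusted p = 0.00104). The FACIT genes with the highest levels, which bind type I fibrils or basement membranes, did not pass the test: Col16a1 (at 138, 128 and 143 CPM in WT and 98.3, 149.5 and 159.7 CPM in SA) and Col12a1 had adjusted p-values of 0.986 and 0.159. Col14a1 was lower in each SA tumor than in any WT penis, at a log2 fold change of -1.10 (SE 0.495, adjusted p = 0.108).

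Cartilage markers were read beside the genes of types II, IX and XI. Of 9 markers 2 rose, 2 fell, 1 did not pass and 4 were below the filter. Their summed level was 110 to 114 CPM in WT penises and 83.2 to 89.9 CPM in SA tumors, and without Sox9, which made up most of it in WT, 38.6 to 43.8 CPM in WT and 48.6 to 51.9 CPM in SA. The defining proteoglycan gene Acan was at 0.362, 0.501 and 1.00 CPM in WT and at 0.297, 0.662 and 0.520 CPM in SA, and Matn1, Matn3, Lect1 and Ucma were at or near 0 in both groups. Sox9, a regulator of cartilage genes that is also made in epithelium, fell by 0.97 on the log2 scale, and Comp fell by 3.20. Hapln1, which links proteoglycan to hyaluronan, rose from 0.497, 0.467 and 0.273 CPM to 5.20, 9.004 and 9.89 CPM, a log2 fold change of 4.27 (adjusted p = 3.22e-05), and 1810019D21Rik rose by 0.68 (adjusted p = 0.000889). The part of these markers in the collagen result was not tested. Bone markers had a summed level of 8.75 to 18.4 CPM in WT and 91.0 to 101 CPM in SA, in the tumors mostly from Runx2, which rose from 2.53, 2.60 and 2.00 CPM to 62.0, 59.5 and 73.8 CPM (log2 fold change 4.77). Sp7 and Ibsp also rose, by log2 fold changes of 3.39 and 7.93, while Alpl did not pass the test (0.41, adjusted p = 0.347) and Bglap and Dmp1 were under the filter. Col10a1, a gene of hypertrophic cartilage, was at 0.181, 0.0668 and 0.0911 CPM in WT and at 0.186, 0.761 and 0.934 CPM in SA, or 143 counts against 8, a normalized ratio of 7.34 (exact 95% counting interval 3.63 to 17.3). Of the 143 counts 115 came from SA tumor 3, SA tumor 1 lay close to WT penis 1, and the interval leaves out the spread between animals. Col10a1 was tested by edgeR only in fits without the filter (adjusted p = 0.0128) or without 1 library, and passed when SA tumor 1 was left out.

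Of the 4 transmembrane genes 2 rose, 1 fell and 1 did not pass, with a median log2 fold change of 2.19. Col17a1 (NM_001290825, chromosome 19, 47646344 to 47692094) encodes the hemidesmosome collagen of basal epithelial cells. It was at 2481, 2969.7 and 3158 CPM in WT penises and at 305, 453 and 531 CPM in SA tumors. The groups were far apart, and the log2 fold change was -2.74 (SE 0.215, adjusted p = 2.26e-05), a 6.68-fold lower mean level. Of 7 basal epithelial markers 3 fell, namely Krt5 (log2 fold change -1.21), Itgb4, the integrin chain of the same hemidesmosome (-1.14), and Trp63 (-0.82). Epcam rose (2.35), and Krt14 (-0.49), Itga6 (-0.47) and Cdh1 (0.04) did not pass the test. The difference between Col17a1 and these markers was not tested. Col7a1 (NM_007738, chromosome 9, 108953586 to 108984875), whose product anchors the same basement membrane from below, was at 405, 495 and 516 CPM in WT and at 389.5, 540.3 and 606 CPM in SA. Its groups overlapped, with a log2 fold change of 0.12 (SE 0.174, adjusted p = 0.599).

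Col23a1 and Col25a1 rose. Col23a1 (NM_153393, chromosome 11, 51289920 to 51583918) was at 16.7, 19.4 and 20.0 CPM in WT penises and at 249.5, 181.5 and 212 CPM in SA tumors, a log2 fold change of 3.52 (SE 0.148, adjusted p = 1.96e-06). Its mean TPM went from 4.55 ± 0.686 to 67.3 ± 12.01 (SD, n = 3 each), the highest level of any collagen gene with a large increase. Col25a1 (NM_029838, chromosome 3, 130131501 to 130599877), which is known from neurons and from the innervation of muscle, was at 0.0452, 0.0334 and 0.0911 CPM in WT penises and at 12.7, 6.16 and 14.6 CPM in SA tumors. Its log2 fold change of 7.61 (SE 0.542, adjusted p = 1.34e-05) was the largest of the collagen genes, and the counts behind it were 2322 in SA against 4 in WT, a normalized ratio of 238 (exact 95% counting interval 93.0 to 876). Markers of Schwann cells, the glia of nerves, were lower, at 347 to 400.1 CPM in WT and 44.3 to 79.6 CPM in SA, with 5 of 6 lower. Col13a1 had a log2 fold change of 0.86 (SE 0.258, adjusted p = 0.0222), with the SA tumors above the WT penises, and passed without SA tumor 1 (1.01, adjusted p = 0.00983).

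The remaining classes also moved in both directions. Of the multiplexins, which release endostatin-like fragments, Col18a1 (NM_001109991, chromosome 10, 77052178 to 77166548) was at 253, 255 and 254 CPM in WT penises and at 509, 549 and 547 CPM in SA tumors. The spread was small in both groups, and the log2 fold change was 1.08 (SE 0.0914, adjusted p = 3.28e-05). Col15a1 fell from 213, 163 and 150.4 CPM to 44.9, 54.03 and 98.6 CPM, a log2 fold change of -1.41 (SE 0.303, adjusted p = 0.00658), which was lost without SA tumor 2 (adjusted p = 0.0302) or any 1 of the WT penises (0.0183 to 0.0288). Of the network-forming type VIII chains, Col8a1 rose from 20.9, 22.6 and 28.1 CPM to 52.7, 44.7 and 40.6 CPM (log2 fold change 0.95, SE 0.150, adjusted p = 0.000919). Col8a2 fell from 12.9, 13.4 and 13.3 CPM to 6.06, 2.91 and 6.65 CPM (log2 fold change -1.33, SE 0.280, adjusted p = 0.00423), a call lost without any 1 of the WT penises (adjusted p from 0.0120 to 0.0146). Outside these classes, Col26a1 (NM_024474, chromosome 5, 136741759 to 136883209) rose from 0.136, 0.334 and 0.319 CPM to 8.70, 7.65 and 13.2 CPM, a log2 fold change of 5.19 (SE 0.375, adjusted p = 1.43e-05). Col28a1 (NM_001037865, chromosome 6, 7997808 to 8192617), known from the sheath of peripheral nerves, fell from 5.83, 5.41 and 9.84 CPM to 1.19, 1.06 and 0.983 CPM, a log2 fold change of -2.71 (SE 0.296, adjusted p = 0.000121). The Schwann cell markers given above fell beside it, and their part in the result was not tested.

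Chains that build the same molecule or fibril were compared as ratios of TPM within a sample. Of 11 pairs, 9 had ratios that did not overlap between the groups, each with a two-sided exact permutation p of 0.10, the smallest that 3 samples against 3 can give (Benjamini-Hochberg adjusted p = 0.122 over the pairs). No pair can therefore pass a threshold of 0.05. Levels of single genes were also often apart, wholly higher in SA for 32.7% and wholly lower for 30.7% of all genes tested. No such share was taken for ratios of other gene pairs. The ratio of Col1a1 to Col1a2, which join in the usual type I molecule, was 0.941, 0.944 and 0.972 in WT penises and 1.38, 1.26 and 1.28 in SA tumors, a small shift whose spread was smaller still. The ratio of Col3a1 to Col1a1 was 2.32, 2.20 and 1.89 in WT and 0.805, 1.14 and 1.24 in SA. The ratio of Col5a1 to Col5a2 was 0.853, 0.946 and 1.01 in WT and 0.502, 0.475 and 0.463 in SA. These fibrillar ratios varied less between SA tumors than the levels did, since SA tumor 1 was low in both members of each pair.

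Among basement membrane chains, the ratio of Col4a1 to Col4a2 was 1.22, 1.33 and 1.30 in WT penises and 1.24, 1.25 and 1.26 in SA tumors. Here the groups overlapped (exact permutation p = 0.4, two-sided). The ratio of Col4a5 to Col4a6 was 1.04, 0.963 and 1.02 in WT and 2.16, 1.68 and 2.18 in SA, and that of Col4a3 to Col4a4 was 0.621, 0.744 and 0.559 in WT and 1.95, 1.37 and 1.36 in SA. The ratio of Col4a5 to Col4a1 showed the largest shift, from 0.205, 0.286 and 0.327 in WT to 0.0333, 0.0148 and 0.0137 in SA. The ratio of Col6a3 to Col6a1 was 0.126, 0.146 and 0.127 in WT and 0.274, 0.299 and 0.331 in SA, and that of Col8a1 to Col8a2 was 1.37, 1.43 and 1.79 in WT and 7.37, 12.99 and 5.18 in SA. That of Col6a1 to Col6a2 went from 1.39, 1.39 and 1.43 in WT to 1.18, 1.14 and 1.11 in SA. The ratio of Col9a2 to Col9a3 overlapped (exact permutation p = 0.4, two-sided), and in WT penises it rests on few counts.

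**Figure D4:**
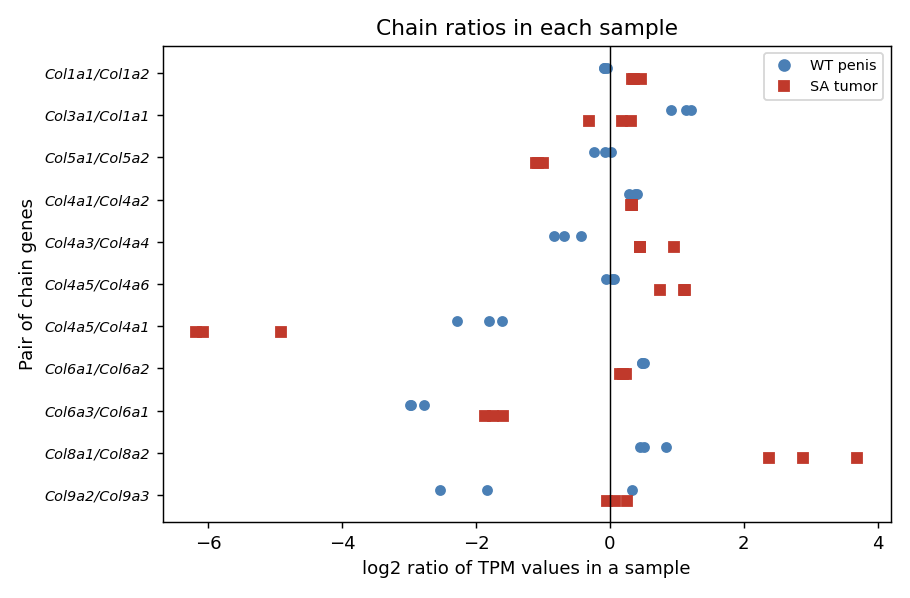
Log2 ratio of TPM values of 2 collagen chain genes in each WT penis (blue circles) and SA tumor (red squares) for 11 pairs. The symbols of the groups are apart in 9 pairs and overlap for Col4a1/Col4a2 and Col9a2/Col9a3, and the widest gap is that of Col4a5/Col4a1, with log2 means of -1.90 in WT and -5.72 in SA.

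For 8 collagen genes the files hold more than 1 transcript row. The rows of Col6a3 and Col18a1 share most reads, and their difference in counts is given here as a share of the longer row. For Col6a3, 0.945%, 1.15% and 1.51% of the counts of the row of 10841 bases were missing from the row of 9020 bases in WT penises, and 5.89%, 4.47% and 6.86% were missing in SA tumors. For Col18a1 the direction was opposite: of the counts of the row of 5628 bases, 5.62%, 6.72% and 7.13% were missing from that of 5044 bases in WT and 1.64%, 1.70% and 1.07% in SA. In CPM this difference was 14.2, 17.1 and 18.1 in WT and 8.32, 9.34 and 5.86 in SA, whereas the whole gene rose. These shares did not overlap between the groups and were not tested. The rows of Col9a1 held the same counts at lengths of 3097 and 3888 bases, so that its TPM, but not its CPM, depends on the row used.

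The gene models set the classes apart by the length of the unbroken repeat. All 44 genes were matched to a GENCODE transcript through their RefSeq identifier. The positions given beside gene names are those of the whole GENCODE gene. The longest run of Gly-X-Y triplets was 216 to 344 in fibrillar genes (median 338), with the lowest values in Col24a1 and Col27a1. It was 39 to 66 in basement membrane genes, 37 to 87 in beaded genes, 32 to 113 in FACIT genes and 40 to 56 in transmembrane genes. Coding exons of 54 bases, as printed above, numbered 21 to 33 in each fibrillar gene and 1 to 3 in each basement membrane gene. Within the FACIT class, Col9a1, Col9a2, Col9a3 and Col22a1 had runs of 113 triplets, and these were the FACIT genes with large increases. Of the 16 genes that rose, 8 had runs of 113 triplets or more, whereas the 10 genes that fell had runs of 28 to 60. A run of 113 or more was also found in 7 genes that did not pass the test, among them Col1a1 and Col3a1, and the 8 other genes that rose had shorter runs. The cut of 113 is the run of the FACIT genes with large increases, so that it is not independent of the calls. These counts follow the classes, and no test was made of them.

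**Figure D5:**
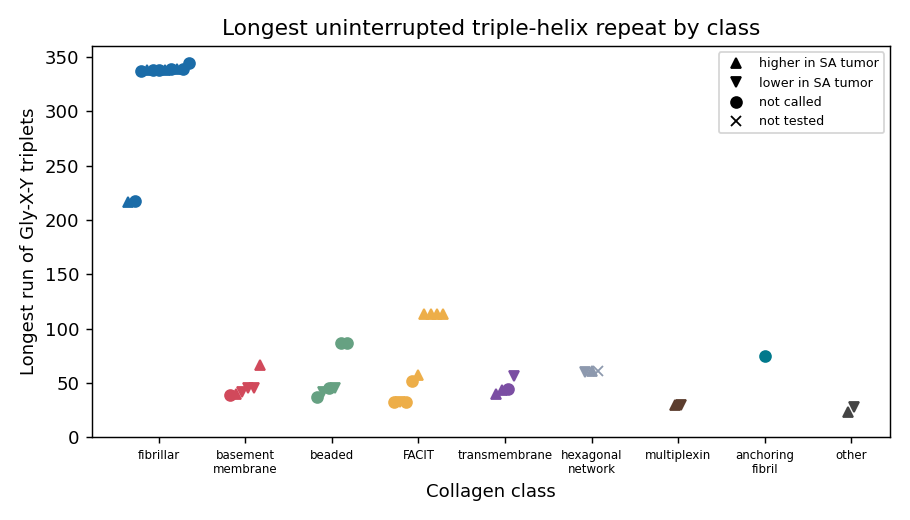
Longest unbroken run of Gly-X-Y triplets in the coding sequence of each of the 44 collagen genes, by class, with the symbol showing the call in SA tumors. Fibrillar genes lie at 216 to 344 triplets with genes that rose and genes not called at the same lengths, and the FACIT genes at 113 triplets are all upward triangles.

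Since the type IX genes moved together, promoters were searched for motifs of TCF/LEF, AP-1 and GLI factors, chosen with the values known. RefSeq promoters of 300 bases on GRCm38.p6 were found for 35 of the 44 genes. Whether each belongs to the transcript row used was not checked. The TCF/LEF motif CTTTGAA, on either strand, was found in 4 of these, Col9a1, Col13a1, Col15a1 and Col6a2 (11.4%, against 5.93% of all 27025 genes), and CTTTGAT in 1, Col9a2 (2.86% against 4.29%). In Col9a1 the match lies 186 bases before the RefSeq start and reads on the opposite strand, in capitals within chr1:24177400-24177454, plus strand: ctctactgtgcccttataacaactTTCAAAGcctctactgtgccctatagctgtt
In Col9a2 the match lies 178 bases before the RefSeq start but inside the GENCODE gene given above, which begins further upstream, and Col9a3 had no promoter entry. The AP-1 motif TGACTCA was found in 1 gene, Col6a1 (2.86% against 5.95%), and the GLI motif TGGGTGGTC in 0 of the 35 (0.289% of all genes). A match is a run of letters and not a shown binding site.

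Most genes that modify, cut, crosslink and bind collagen did not pass the test. Of 52 such genes 47 were tested, 6 rose and 7 fell, which is 12.8% and 14.9% against 20.1% and 17.5% of all genes tested. Among 23 tested genes of hydroxylation, folding and export, 3 rose and 4 fell. The prolyl hydroxylase subunits P4ha1 and P4ha2 fell by 0.66 and 0.82 on the log2 scale, and so did Leprel1 and Leprel4, genes of the prolyl 3-hydroxylase family, by 1.02 and 0.83. The lysyl hydroxylase gene Plod2 rose from 10.6, 11.4 and 10.9 CPM to 35.5, 27.3 and 33.6 CPM (log2 fold change 1.55, adjusted p = 3.58e-05). Lepre1 rose by a log2 fold change of 0.84 and Tmem38b by 0.55, but Tmem38b did not pass in any fit that left out a sample, and Lepre1 lost its call without SA tumor 2 or any 1 of the WT penises. P4ha1 lost its call without WT penis 2 and Leprel1 without SA tumor 2. P4hb, the list's gene with the highest level, was at 874, 758 and 699 CPM in WT and at 790.1, 785 and 795 CPM in SA (log2 fold change 0.02), and the collagen chaperone Serpinh1 had a log2 fold change of -0.03.

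Among the 7 tested genes of propeptide removal, Bmp1, the proteinase that trims the carboxyl end of fibrillar chains, rose by a log2 fold change of 0.98 (adjusted p = 0.00176), a call lost without WT penis 1 or WT penis 2. Pcolce2, an enhancer of that proteinase, fell from 35.0, 29.0 and 37.9 CPM in WT penises to 0.595, 2.15 and 1.99 CPM in SA tumors, a log2 fold change of -4.36 (SE 0.380, adjusted p = 6.23e-05). Of 6 crosslinking genes only Pxdn passed. It encodes peroxidasin, which crosslinks type IV collagen, and it rose from 24.5, 28.6 and 30.7 CPM to 107, 83.7 and 108 CPM (log2 fold change 1.83, adjusted p = 1.74e-05). The lysyl oxidase genes Lox, Loxl1, Loxl2, Loxl3 and Loxl4 had log2 fold changes from -0.95 to 0.95 and did not pass. Loxl2 and Loxl3 were higher in each SA tumor than in any WT penis, and Loxl1 was lower in each. Without SA tumor 1, Loxl2, Loxl3 and Loxl1 passed (adjusted p = 0.000107, 0.000126 and 0.00837). For Lox and Loxl4 the groups overlapped. Among 11 tested receptor genes, Itga1, whose integrin binds type IV and type I collagen, rose from 7.05, 6.91 and 9.11 CPM to 59.6, 61.8 and 115 CPM (log2 fold change 3.36, SE 0.292, adjusted p = 6.18e-05). Itga10 and Ddr1 fell by 1.22 and 0.66 on the log2 scale, and Itga10 lost its call without WT penis 2 or WT penis 3. Cd44 was at 337, 457 and 491 CPM in WT and 551, 479.7 and 502 CPM in SA, and did not pass (adjusted p = 0.183).

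Markers of other cell types were read beside the collagen genes. Fibroblast markers had a summed level of 3622 to 4114 CPM in WT penises and 1835 to 3936 CPM in SA tumors, with 3 of 12 higher and 2 lower. SA tumor 1 was the lowest SA tumor for 11 of the 12, as it was for 9 of the 11 fibrillar collagens. Dcn and Postn fell by 1.80 and 1.99 on the log2 scale, and Fn1, Thy1 and Fbln1 rose, Fn1 by a log2 fold change of 2.24. Dpt had the change of largest size, a log2 fold change of -2.60, but did not pass (adjusted p = 0.0199), except without SA tumor 1. Every SA value lay above every WT value in 4 of the 12 markers and below in 5. The calls of Dcn and Thy1 were lost without SA tumor 2, WT penis 1 or WT penis 3, and that of Thy1 also without WT penis 2. Leukocyte markers were at 71.9 to 112 CPM in WT and 114 to 329 CPM in SA with 1 of 7 passing, and skeletal muscle markers were at 11.7 to 17.0 CPM in WT and 6.85 to 8.66 CPM in SA. Of the adipocyte markers only Fabp4 was measured above the filter (3.03, 3.44 and 4.46 CPM in WT and 122, 132 and 125 CPM in SA), and Adipoq, Plin1, Lep and Cidec were at or near 0. The part of these markers in the collagen results was not tested.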

How the data were processed

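RNA of penile tumors from 3 SA mice and penile epithelium from 3 WT mice was sequenced by the authors as stranded 76-nt paired-end libraries on an Illumina HiSeq. Per the methods and the submitters' processing notes, reads were aligned to mm10 with TopHat, checked with FastQC and counted with HTSeq, with no versions given in the sources used here. The authors deposited raw counts per RefSeq transcript, with FPKM and TPM values. The deposited TPM values were used for levels between genes and for chain ratios, and the deposited FPKM values only to derive transcript lengths.

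Counts were tested in edgeR 4.0.16 (R 4.3.3) with filterByExpr (minimum count 10, total 15), TMM, the robust quasi-likelihood F-test and Benjamini-Hochberg adjustment over 16336 genes. A standard error is the size of the log2 fold change divided by the square root of F. The thresholds were an adjusted p under 0.01 and, for large changes, a log2 fold change of 2. The depth was 23828283 to 110509147 gene-row counts. DESeq2 1.42.0, limma-voom (limma 3.58.1), other scalings and filters, a replicate block and leaving out each sample were alternatives, as was thinning SA tumor 3 to 22.6% of its counts. Chain ratios were compared by exact permutation (scipy 1.17.1). Intervals and floors cover counting error only.

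All members are named where called, with per-sample values for the strongest and highest genes of each class. Of the 4 pathway lists and 10 marker lists, large calls, the highest genes and Smad4 and Apc are named, and other list genes were named after their values were seen. The members and lists were chosen with earlier results of these data known. On simulated data edgeR recovered 81 of 100 genes changed by 1.5 and 98 of 99 changed by 3 on the log2 scale, and called 9 unchanged genes. Exons were read from GENCODE M21 and promoters from RefSeq.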

Additional observations from a re-analysis of the deposited data

How the results depend on the processing

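The 43 tested collagen genes gave 772 log2 fold changes under alternatives, of which 690 kept direction and side of the threshold, 56 lost a call, 15 gained one and 11 changed sign, none of the 11 in a called gene. Scaling by library totals alone moved the median of all genes from 0.03 to 0.31, gave 6 collagen genes lower in place of 10, and gave 12 pathway genes higher and 2 lower in place of 6 and 7. It also turned Col1a1 to 0.032, Col5a1 to 0.20 and Col16a1 to 0.28. Col16a1 was 0.060 with upper-quartile scaling and 0.0046 with a mean of at least 50 counts. With 1 sample left out, the numbers were 14 to 22 collagen genes higher, 6 to 10 lower, 14 to 16 with a large change, 3 to 12 pathway genes higher and 5 to 9 lower. The 22, from the fit without SA tumor 1, include Col10a1, which is not among the 43 tested genes. In those fits Col1a1 ran from -0.59 to 0.11 and Col5a1 from -0.46 to 0.20, turning sign without SA tumor 1 alone. Col5a3 ran from -0.27 to 0.49 and Col7a1 from -0.021 to 0.28, turning without SA tumor 3. Col16a1 ran from -0.14 to 0.18 and was positive without SA tumor 1 or WT penis 3. The pathway genes higher were 12 without SA tumor 1 and 3 without WT penis 1 or WT penis 2. A test against a log2 fold change of 2 itself left 9 genes with a large change. DESeq2 called 20 higher and 9 lower, and limma-voom 15 and 9. The shares of all genes that these tools called are not given here. Summing all transcript rows gave a WT collagen share of 0.824%, against 0.914%. The cause of these shifts was not tested beyond the change of scale or samples that makes them.

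Samples of the 2 groups share replicate numbers, but the residuals of same-numbered samples had correlations across genes of -0.13, -0.10 and 0.02, so the numbers were not taken as pairs. With the replicate number as a block, 16 collagen genes rose and 7 fell, and Col4a4, Col6a6 and Col15a1 lost their calls (adjusted p = 0.0123, 0.0312 and 0.0174). Thinning SA tumor 3, chosen after seeing the data, left 16 higher and 10 lower. Genes under about 1 CPM, such as Col6a5, Col6a6 and Col10a1, are limited by depth.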
